A study of Mus musculus with 16 samples.

Results

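The genotype by dexamethasone interaction was examined in mouse quadriceps. It is the dexamethasone response of Klf15 knockout (KO) muscle minus the response of wild-type (WT) muscle, and it asks which transcripts need Klf15 in order to respond to the glucocorticoid. All 16 of 16 arrays of the series enter it. They hold RNA of WT mice given vehicle, WT mice given dexamethasone, KO mice given vehicle and KO mice given dexamethasone, with 4 animals and 4 arrays in each group, grouped by sample title. Dexamethasone, a synthetic glucocorticoid, was given once by intraperitoneal injection at 2 mg/kg, vehicle was given in the same volume, and the samples used here are labelled 8 h. The labels call the mutant mice only KO for KLF15. Allele, tissue range of the deletion, strain, sex and age are not stated in the sources used here.

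Glucocorticoids bind the glucocorticoid receptor, which enters the nucleus and changes transcription at its response elements. In skeletal muscle they release amino acids from protein and favour fat over glucose as fuel. Klf15 encodes a zinc-finger transcription factor of the Krüppel-like family, whose members bind CACCC and related GC-rich boxes. It is itself induced by glucocorticoids and is known for promoting amino acid breakdown and fatty acid use in muscle, so a transcript can depend on the receptor alone, on Klf15, or on both.

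Levels are log2 processed intensity relative to the 75th percentile of each array, so that a level of 0 is as bright as that percentile. They compare 1 probe between arrays and not different genes. Interactions and responses are differences of group means on the same log2 scale, each with its standard error (SE) and n = 4 arrays per group. A negative interaction means that the response of KO was lower than that of WT. The number of arrays limits precision: the median SE of the interaction was 0.274 over 25196 features (15176 with a gene symbol) and the median 95% interval reached 0.590 log2 units to either side. All 12 fast-fibre contractile genes listed, such as Myh4 and Actn3, were measured well above background on every WT vehicle array. Since whole muscle was measured, fewer cells of a type and less RNA per cell cannot be told apart.

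Klf15 itself, the targeted gene, separated the genotypes. Its brighter probe read 3.78, 3.25, 2.80 and 3.36 in WT vehicle and 4.10, 4.77, 3.94 and 4.40 in WT dexamethasone. The KO arrays read -1.29, -0.83, -0.47 and -0.12 under vehicle and 0.58, 0.24, 0.64 and 0.60 under dexamethasone. Every KO array lay below every WT array, by a mean of -3.88 log2 units or 14.7-fold (exact permutation test of 8 against 8 arrays, two-sided, p = 0.0001554, the smallest it can give). The second probe was 11.1-fold lower with the same exact permutation p = 0.0001554. The remaining signal rose by 1.19 ± 0.26 (SE) with dexamethasone in KO (limma adjusted p = 0.00945), beside 1.01 ± 0.26 in WT (limma adjusted p = 0.0238). The interaction of the brighter probe was 0.18 and that of the second probe -0.71, neither past the threshold. Whether either probe lies in the deleted part is not stated in the labels.

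Upstream sequences of genes with opposite kinds of interaction are shown because they hold, in different number, the box that Krüppel-like factors bind. They are the 250 bases before the start of each gene from the RefSeq promoter table (GRCm38.p6), 5′ to 3′ on the gene's strand, at chr1:193273189-193273438 (minus strand) for G0s2, chr7:45569903-45570152 (plus) for Bcat2, chr16:21787835-21788084 (minus) for Ehhadh and chr11:95413833-95414082 (plus) for Spop. Capitals mark CACCC or its reverse complement GGGTG, and would also mark AGAACA or TGTTCT, the recognition hexamer within a glucocorticoid response element. Bcat2 has 2 listed starts, of which the one farther upstream is shown.
G0s2: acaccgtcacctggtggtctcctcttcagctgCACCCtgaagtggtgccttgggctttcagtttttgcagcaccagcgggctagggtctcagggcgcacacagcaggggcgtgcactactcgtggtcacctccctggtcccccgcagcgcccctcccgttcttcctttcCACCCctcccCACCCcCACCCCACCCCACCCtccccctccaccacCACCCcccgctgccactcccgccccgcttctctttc
Bcat2: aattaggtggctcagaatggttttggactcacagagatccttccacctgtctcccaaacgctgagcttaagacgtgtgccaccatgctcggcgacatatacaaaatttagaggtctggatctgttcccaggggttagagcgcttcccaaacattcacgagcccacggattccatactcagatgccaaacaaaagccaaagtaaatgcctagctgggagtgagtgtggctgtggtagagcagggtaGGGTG
Ehhadh: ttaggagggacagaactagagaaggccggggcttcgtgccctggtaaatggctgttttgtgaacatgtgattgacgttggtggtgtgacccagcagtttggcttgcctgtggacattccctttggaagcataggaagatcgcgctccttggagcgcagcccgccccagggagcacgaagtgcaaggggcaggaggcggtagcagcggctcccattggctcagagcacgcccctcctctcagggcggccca
Spop: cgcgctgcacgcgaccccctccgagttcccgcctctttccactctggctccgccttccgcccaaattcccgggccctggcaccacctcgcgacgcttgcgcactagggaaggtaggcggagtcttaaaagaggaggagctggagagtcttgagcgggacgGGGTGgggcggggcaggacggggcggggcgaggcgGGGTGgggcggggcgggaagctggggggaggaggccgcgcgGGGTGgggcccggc
G0s2, which rose 3.83-fold in WT and whose KO response of 0.45 did not pass, has 7 CACCC matches on its own strand, at 36 to 218 bases before the start. Bcat2 has 1 match and Ehhadh has none, and both rose in WT with a KO response that did not pass. Spop, which fell in WT and was at 0.068 in KO, has 3 matches, all as GGGTG. No AGAACA match lies in these 4 windows. Over all 32851 promoter windows of this length 52.0% hold at least 1 CACCC on either strand, 6.92% hold 3 or more and 0.0974% hold 7 or more, and 16.1% hold AGAACA. Of the 10 genes with the smallest p and an interaction below 0, 7 are in the table and 4 of these hold CACCC in at least 1 window (G0s2, Zfyve21, Slc41a1 and Esr2). Esr2 was well above background in KO vehicle only. Of the 10 above 0, all 10 are listed and 7 hold it, beside 54.5% of all genes listed. The matches describe letters only.

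No single gene passed the test of the interaction. With limma and Benjamini-Hochberg adjustment over all 25196 features, 0 were below an adjusted p of 0.05 (0% of features) and the smallest adjusted p was 0.0922. Under an adjusted p of 0.10 there were 6, of which 4 have a symbol: Spop, Slx4ip, Itih5 and Cth. At an unadjusted p under 0.05 there were 2893 features (11.5%), with 981 below 0 (3.89%) and 1912 above 0 (7.59%). The split depended on the scaling. It was 2756 below and 528 above 0 when arrays were scaled to their median, 1593 and 993 after quantile normalization, and 164 and 205 with normexp background correction. The authors' deposited log2 values gave 1 call, Cth (-1.68, limma adjusted p = 0.00156). Probes well above background on all 16 arrays gave 6 calls, among them Cth, Spop, Itih5 and Slx4ip.

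The arrays lay on 8 slides, none of which held all 4 groups, and the 1 slide with both WT groups was that of WT vehicle replicate 4 and WT dexamethasone replicate 2. WT dexamethasone replicate 3 lay alone on its slide and was the only array scanned on the second of 2 scan days, and without it 0 features passed (867 below and 1648 above 0 at an unadjusted p under 0.05). With slide as a random block (consensus correlation 0.574) 310 features passed, 118 below 0 (0.468%) and 192 above 0 (0.762%), 185 of them with a symbol. All 310 had an unadjusted p under 0.05 without the block and the same sign with slide as a fixed block, where 0 passed and 2984 had an unadjusted p under 0.05. The count with the random block rested on single arrays: with the correlation held at 0.574 it was 0 without KO vehicle replicate 1 and without KO dexamethasone replicate 3, and 746 without KO vehicle replicate 4. It was 6 to 103 without any 1 of WT vehicle replicates 2, 3 and 4, KO vehicle replicates 2 and 3, all 4 WT dexamethasone replicates and KO dexamethasone replicates 2 and 4. With the random block 24 of the 71 named genes passed. That adjusted p is given beside the main genes as an alternative and not as the call.

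Many transcripts responded to dexamethasone in both genotypes. In WT 1271 features rose (5.04%) and 1421 fell (5.64%), and in KO 1433 rose (5.69%) and 1146 fell (4.55%), by limma at an adjusted p of 0.05. The 1358 features called in both are 50.4% of the WT calls and 52.7% of the KO calls, and 1354 of them moved in the same direction. Of 1334 features called in WT only, 600 (45.0%) had an unadjusted interaction p under 0.05, and of 1221 called in KO only, 490 (40.1%) did, beside 10.8% of those called in both and 11.5% of all features. The calls use the same arrays as the interaction, so these shares are a description. The average response over genotypes has an estimate that is uncorrelated with the interaction in this balanced design. Choosing features by it does not favour either genotype. The average response was called for 4337 features. Their median absolute response was 0.540 in WT and 0.541 in KO, and their responses correlated across features at r = 0.892. The features are not independent replicates, so this is a description. At an unadjusted p under 0.05 the response was smaller in KO for 334 and larger in KO for 379. Among features that rose these counts were 122 and 208, and among those that fell 212 and 171. They hold for the main scaling, on which the sign of many interactions depends. For 3257 (75.1%) the 95% interval of the interaction lay within 1 log2 unit of 0, as for 53.4% of all features.

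**Figure D1:**
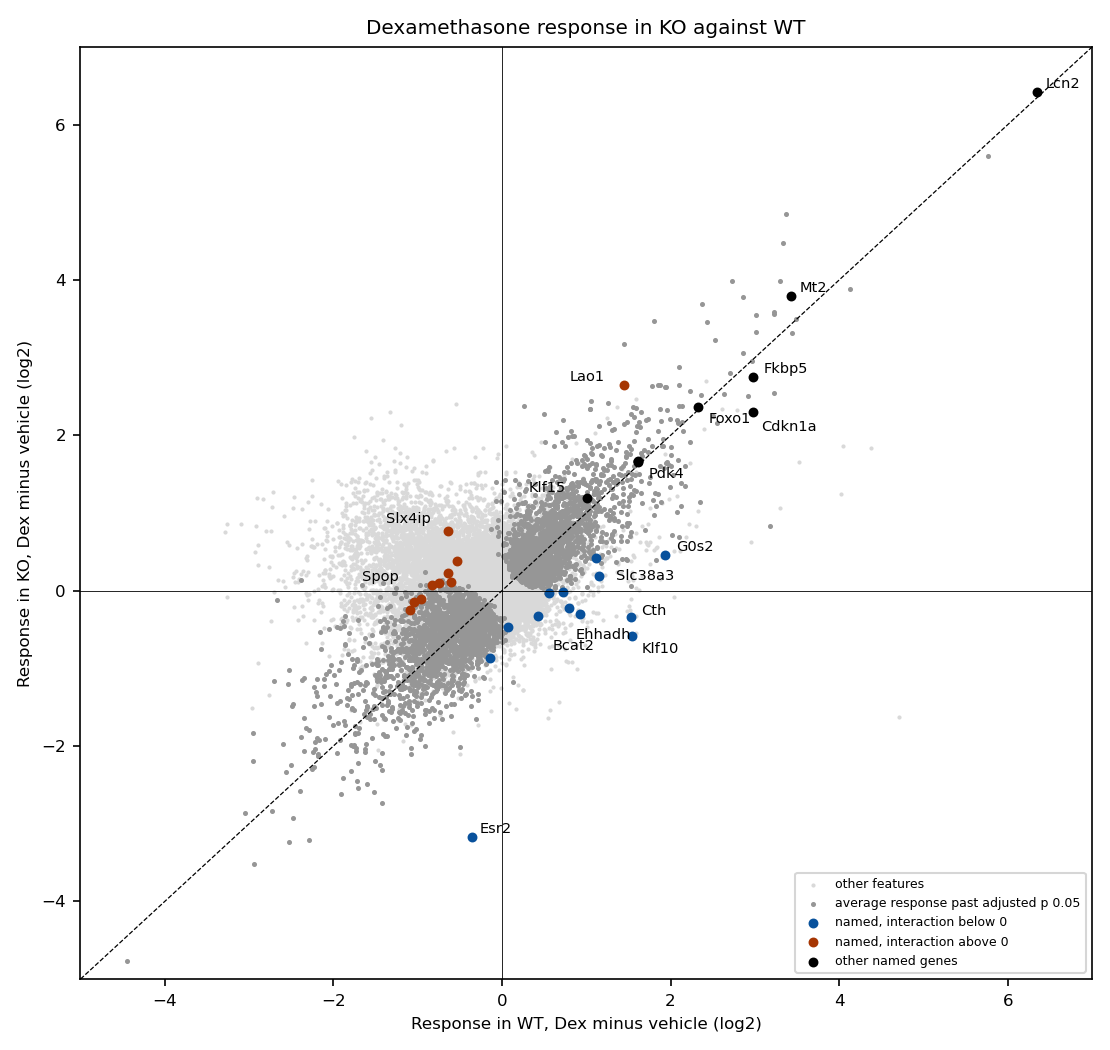
Dexamethasone response (dexamethasone minus vehicle, log2) in WT on the x axis and in KO on the y axis for 25196 features, as group mean differences of 4 arrays each; dark grey points have an average response past an adjusted p of 0.05, larger points are named genes and the dashed line marks equal responses. Lcn2, Mt2, Foxo1 and Pdk4 lie on or near the line, Cth (1.53 in WT, -0.34 in KO) and Klf10 lie below it, and Lao1 (1.44 and 2.65) and Slx4ip lie above it.

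Several genes of amino acid breakdown and transport rose in WT and had a KO response that did not pass. Cth encodes cystathionine gamma-lyase, which splits cystathionine to cysteine in the transsulfuration pathway. It read -0.64, -1.04, -1.41 and -0.72 in WT vehicle and 0.39, 0.83, 0.43 and 0.66 in WT dexamethasone. In KO it read -4.65, -4.85, -4.69 and -4.41 under vehicle and -4.41, -5.36, -5.03 and -5.17 under dexamethasone. The WT groups did not overlap and the KO groups did. Cth thus rose 2.89-fold in WT (limma adjusted p = 0.000452), while the KO response was -0.34 ± 0.21 (limma adjusted p = 0.42). The interaction was -1.87 ± 0.30 (95% interval -2.51 to -1.23, unadjusted p = 2.37e-05, limma adjusted p = 0.0994). With slide as a random block its adjusted p was 0.0136. Under vehicle Cth was already 13.0-fold lower in KO, and under dexamethasone it was 47.6-fold lower.

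Bcat2 encodes the mitochondrial branched-chain aminotransferase, the first step of leucine, isoleucine and valine breakdown. Its levels were 0.75, 0.57, 0.88 and 0.89 in WT vehicle, and 2.09, 1.5, 1.44 and 1.26 in WT dexamethasone. In KO they were 0.0045, -0.29, -0.60 and -0.71 under vehicle and -0.61, -0.30, -0.71 and -0.88 under dexamethasone. Only the WT groups were apart, with a rise of 0.80 ± 0.20 (limma adjusted p = 0.018), beside -0.23 ± 0.20 in KO, and the interaction was -1.03 ± 0.28 (unadjusted p = 0.00243, limma adjusted p = 0.217, random-block adjusted p = 0.0445). A second probe gave -1.16 and the remaining probe, whose SE was 0.459, gave 0.029.

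Gpt, the alanine aminotransferase, read 3.34, 3.33, 3.02 and 3.35 in WT vehicle and 3.93, 4.00, 3.77 and 3.55 in WT dexamethasone. It read 2.69, 2.72, 2.59 and 2.75 in KO vehicle and 2.88, 2.63, 2.63 and 2.51 in KO dexamethasone. The WT arrays separated by treatment and the KO arrays did not, and the interaction was -0.58 ± 0.17 (unadjusted p = 0.00377, limma adjusted p = 0.239). Slc38a3, the glutamine transporter SNAT3, read 2.40, 2.19, 2.27 and 2.65 in WT vehicle against 3.5, 3.45, 3.82 and 3.36 in WT dexamethasone. In the knockout it read 2.42, 2.73, 2.13 and 2.58 against 2.70, 2.72, 2.67 and 2.55. Unlike Cth and Bcat2, Slc38a3 had about the same vehicle level in both genotypes (KO minus WT 0.089, limma adjusted p = 0.935). Its rise of 1.16 ± 0.14 in WT stood against 0.19 ± 0.14 in KO, with an interaction of -0.96 ± 0.20 (unadjusted p = 0.000318, limma adjusted p = 0.173, random-block adjusted p = 0.0431).

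For the proline and ornithine enzymes the KO arrays also separated by treatment, though no KO response or interaction passed. Prodh, proline dehydrogenase, was 8.31-fold lower in KO under vehicle, and its response was 0.68 ± 0.11 in WT (limma adjusted p = 0.00149) and 0.33 ± 0.11 in KO (limma adjusted p = 0.0797). In each genotype all 4 dexamethasone arrays lay above the 4 vehicle arrays, and the interaction was -0.35 ± 0.16 (unadjusted p = 0.0429). Oat, ornithine aminotransferase, had the same pattern with 0.60 in WT, 0.25 in KO (limma adjusted p = 0.0788) and an interaction of -0.36 ± 0.12 (unadjusted p = 0.00863). Aldh9a1, an aldehyde dehydrogenase of the carnitine pathway and the other member of its list with an unadjusted p under 0.05, rose by 2.07 in WT and 1.01 in KO.

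**Figure D2:**
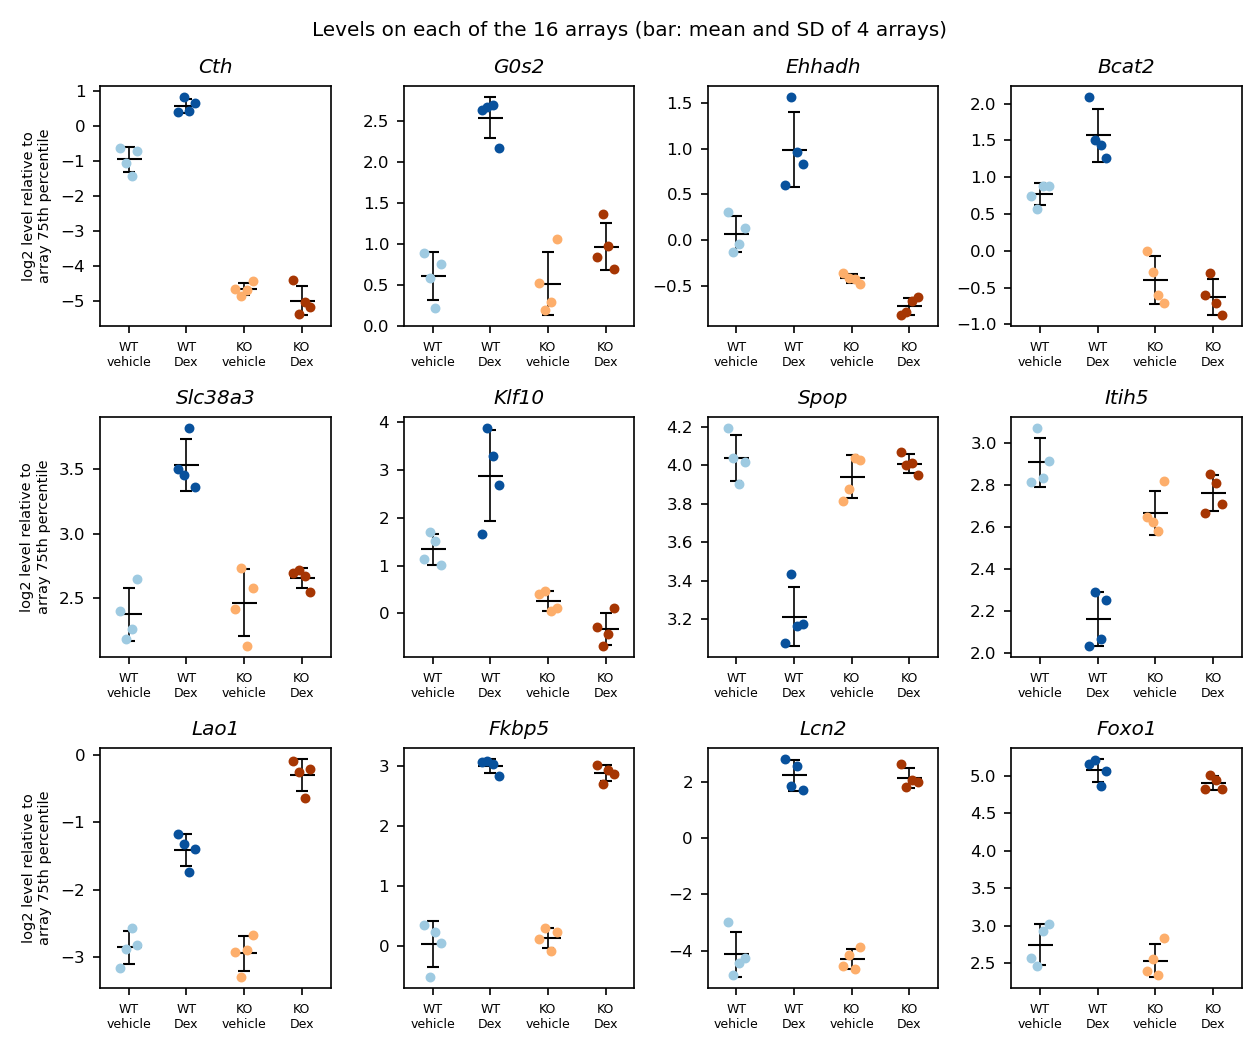
Log2 level relative to the 75th percentile of the array for 12 genes, with a point for each of the 4 arrays per group and a bar for the mean and SD. Cth, G0s2, Bcat2 and Slc38a3 are higher in WT dexamethasone (dark blue) than in WT vehicle (light blue) without overlap and overlap between the KO groups (orange and brown), Spop and Itih5 are lower in WT dexamethasone than in the other 3 groups, and Fkbp5, Lcn2 and Foxo1 rise alike in both genotypes.

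Among genes of lipid use G0s2 and Ehhadh had the smallest interaction p-values. G0s2 encodes an inhibitor of adipose triglyceride lipase. It read 0.89, 0.58, 0.21 and 0.75 in WT vehicle and 2.64, 2.68, 2.70 and 2.17 in WT dexamethasone. In KO it read 0.52, 0.19, 0.29 and 1.06 under vehicle and 0.84, 1.37, 0.98 and 0.69 under dexamethasone. Vehicle levels of the genotypes overlapped, and every WT dexamethasone array lay above all 12 other arrays. The rise was 3.83-fold in WT (limma adjusted p = 9.63e-05) and the KO response was 0.45 ± 0.21 (limma adjusted p = 0.245), with an interaction of -1.48 ± 0.30 (unadjusted p = 0.000263, limma adjusted p = 0.173, random-block adjusted p = 0.0387).

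Ehhadh, the bifunctional enzyme of peroxisomal fatty acid oxidation, was 1 of 3 named genes whose groups moved in opposite directions without overlap. Selection by the interaction p favours that pattern. Ehhadh read 0.31, -0.13, -0.048 and 0.13 in WT vehicle and 0.60, 1.57, 0.96 and 0.83 in WT dexamethasone. KO muscle read -0.36, -0.41, -0.42 and -0.48 under vehicle and -0.83, -0.79, -0.66 and -0.63 under dexamethasone. The rise of 0.93 in WT passed (limma adjusted p = 0.00297) and the KO response of -0.31 did not (limma adjusted p = 0.336). The interaction was -1.23 ± 0.24 (unadjusted p = 0.000142, random-block adjusted p = 0.0181).

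Slc25a20, the carnitine-acylcarnitine carrier of the mitochondrial inner membrane, rose by 0.63 ± 0.15 in WT (limma adjusted p = 0.0188), beside 0.056 ± 0.15 in KO. Its interaction was -0.57 ± 0.22 (unadjusted p = 0.0206). Ucp3, a mitochondrial uncoupling protein, rose in both genotypes, by 1.79 in WT and 1.17 in KO. Acads, the short-chain acyl-CoA dehydrogenase, passed in neither genotype, with 0.27 in WT and -0.38 in KO.

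The other genes among the 10 smallest p-values below 0 have less connected functions. With slide as a random block the interactions of Zfyve21, Slc41a1, Slc20a2, Slc2a12 and Fam219b had adjusted p-values of 0.0136 to 0.0479. Zfyve21, which encodes a FYVE-domain protein, was 2.92-fold lower in KO under vehicle (limma adjusted p = 2.52e-06) and rose in both genotypes, by 1.12 ± 0.10 in WT and 0.43 ± 0.10 in KO. Slc41a1, a magnesium transporter, rose by 0.73 in WT and was at -0.014 in KO, but its second probe had an interaction of 0.59 against -0.74. Slc20a2, a phosphate transporter, rose by 0.43 in WT and was -0.33 in KO (limma adjusted p = 0.0786), with no overlap in either genotype, and its second probe gave -0.41 against -0.76. Slc2a12, a glucose transporter, and Fam219b fell in KO, by 0.87 (limma adjusted p = 0.000116) and by 0.46 (limma adjusted p = 0.00165), where their WT responses were -0.14 and 0.069. Esr2, the estrogen receptor beta, was not well above background in 3 of the 4 groups. It was above background on all 4 KO vehicle arrays, at least 3.49-fold higher than in KO dexamethasone and at least 3.43-fold higher than in WT vehicle. It passed the filter on dim probes only through that group. These differences are therefore a description, and its p-value, by which it was chosen, is not read as a test.

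Klf10, another Krüppel-like factor gene, had the most negative interaction of the named genes with signal in all groups. It read 1.13, 1.71, 1.52 and 1.02 in WT vehicle and 1.67, 3.88, 3.30 and 2.68 in WT dexamethasone. In KO it read 0.40, 0.48, 0.061 and 0.11 under vehicle and -0.28, -0.69, -0.44 and 0.12 under dexamethasone. WT dexamethasone replicate 1 lay within the range of the WT vehicle arrays and the other WT dexamethasone arrays lay above it, while all KO arrays lay below all WT arrays. The rise in WT was 1.54 ± 0.36 (limma adjusted p = 0.0153), and the interaction was -2.12 ± 0.52 (unadjusted p = 0.00111, random-block adjusted p = 0.0375).

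The opposite side held mostly genes that fell in WT. Of the 10 smallest p-values above 0, 9 genes fell in WT by limma, and Lao1 rose. Spop encodes the substrate adaptor of a cullin-3 ubiquitin ligase. It read 4.19, 4.04, 3.90 and 4.02 in WT vehicle and 3.08, 3.44, 3.17 and 3.17 in WT dexamethasone. Levels in KO were 3.81, 3.88, 4.04 and 4.03 under vehicle and 4.07, 4.00, 4.01 and 3.95 under dexamethasone. The 4 WT dexamethasone arrays lay below all others. Spop fell by 0.82 ± 0.094 in WT (limma adjusted p = 0.000125), the KO response was 0.068 ± 0.094, and the interaction was 0.89 ± 0.13 (95% interval 0.60 to 1.18, limma adjusted p = 0.0922, random-block adjusted p = 0.0136).

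Itih5, which encodes a heavy chain of the inter-alpha-trypsin inhibitor family, had the same shape. Its levels were 2.81, 3.07, 2.83 and 2.92 in WT vehicle and 2.04, 2.29, 2.07 and 2.25 in WT dexamethasone, against 2.65, 2.62, 2.58 and 2.82 and then 2.67, 2.86, 2.81 and 2.71 in KO. Again only the WT dexamethasone arrays stood apart, and the interaction was 0.84 ± 0.13 (limma adjusted p = 0.0922, random-block adjusted p = 0.0136). Tnrc18, Nf1 (neurofibromin, a negative regulator of Ras), Cbx1 (the chromatin protein HP1 beta), 2810006K23Rik, Hdgfl3 and Fam168a fell by 0.53 to 1.09 in WT, and no KO response of these 6 passed. Their interactions were 0.72 to 0.91, with random-block adjusted p-values of 0.0181 to 0.0368. Other probes bore this out for Nf1 (0.57) and not for Fam168a (-0.12) or Hdgfl3 (-0.33 and 0.45). Slx4ip, a partner of the SLX4 nuclease scaffold, fell by 0.63 in WT and rose by 0.77 in KO without overlap in either (limma adjusted p = 0.0162 and 0.00512). Its interaction was 1.40 ± 0.21 (random-block adjusted p = 0.0136). At its second probe the responses were both above 0, 0.41 in WT and 0.87 in KO, and the interaction was 0.46.

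Lao1, an L-amino acid oxidase gene, was induced in both genotypes and more in KO. It read -3.16, -2.88, -2.56 and -2.82 in WT vehicle and -1.17, -1.33, -1.75 and -1.40 in WT dexamethasone. In KO it read -2.92, -3.30, -2.89 and -2.67 under vehicle and -0.10, -0.25, -0.64 and -0.21 under dexamethasone. The rise was 2.72-fold in WT and 6.26-fold in KO, and every KO dexamethasone array lay above every WT dexamethasone array (interaction 1.20 ± 0.25, unadjusted p = 0.000267, limma adjusted p = 0.173, random-block adjusted p = 0.0371). Among genes with an average response, those with the smallest p and a larger KO response also included Pcdh12, an endothelial protocadherin, which fell by 1.42 in WT and 2.73 in KO, and Fmnl1, a formin of blood cells, which fell by 1.17 in KO and was 0.13 in WT. Their second probes gave interactions of -0.55 and -1.06. Of 12 endothelial markers 4 (Pecam1, Tek, Tie1 and Eng) had an unadjusted p under 0.05 below 0 and 1 (Ptprb) above 0, with backgrounds of 3.89% and 7.59%. Among 10 genes listed as markers of pericytes and smooth muscle 3 (Myh11, Pdgfrb and Des) were below 0 at that level and 0 above, with a median of -0.104. Des is also expressed in muscle fibres, so in whole muscle it does not mark these cells alone. The part of cell content in these results was not tested.

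**Figure D3:**
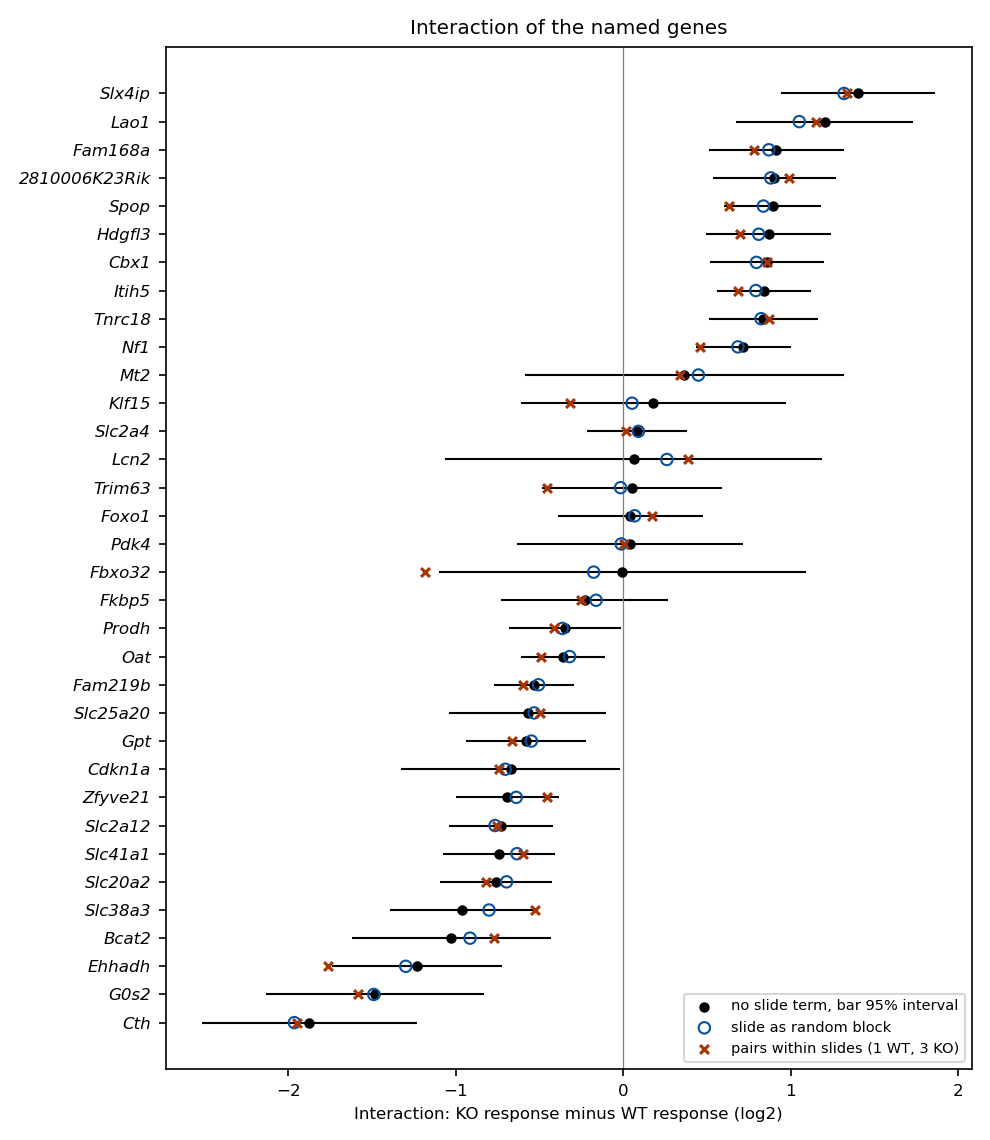
Interaction (log2, KO response minus WT response) of the genes fixed by name and of those with the smallest p on either side of 0; filled points and bars are the estimate without a slide term and its 95% interval, open circles the estimate with slide as a random block, and crosses the difference between pairs of arrays that share a slide (3 KO pairs, 1 WT pair). Esr2 is left out, being below background in 3 groups. Every interval of the 19 genes chosen by smallest p that are drawn excludes 0, which their selection fixes. Their open circles and crosses lie on the same side of 0, but reuse the arrays of that selection, so this is a description.

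Most of the classical glucocorticoid targets examined rose in both genotypes, with intervals of the interaction that include 0. Fkbp5, a receptor co-chaperone, read 0.35, -0.53, 0.23 and 0.049 in WT vehicle and 3.06, 3.09, 3.04 and 2.84 in WT dexamethasone. The KO arrays read 0.10, 0.29, -0.090 and 0.22 under vehicle and 3.03, 2.70, 2.94 and 2.88 under dexamethasone. Its rise was 7.90-fold in WT and 6.74-fold in KO, and the 95% interval of the interaction was -0.73 to 0.27. A less responsive probe of Fkbp5 rose by 0.29 in WT and 1.33 in KO (interaction 1.04, unadjusted p = 0.00197). Lcn2, the lipocalin of the acute phase, had the largest responses of the named genes, 81.8-fold in WT and 85.4-fold in KO, with an interval of -1.06 to 1.19. Foxo1, a transcription factor of muscle atrophy, rose by 2.33 and 2.37, with an interval of -0.39 to 0.48.

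Pdk4, the kinase that shuts off pyruvate dehydrogenase, rose by 1.62 in WT and 1.66 in KO (95% interval of the interaction -0.63 to 0.72). Trim63, the ubiquitin ligase MuRF1, rose by 1.61 and 1.67 (-0.48 to 0.59). Fbxo32, the ligase atrogin-1, passed in neither genotype (1.09 in WT and 1.08 in KO, limma adjusted p = 0.0721 and 0.0782), with a wide interval of -1.10 to 1.09, and its pairs within slides differed by -1.18. Mt2, a metallothionein with a near-identical copy, rose by 3.43 and 3.79 (-0.59 to 1.32). Cdkn1a, the cell-cycle inhibitor p21, rose by 2.97 in WT and 2.30 in KO, and its interaction of -0.67 ± 0.30 had an unadjusted p of 0.045 (-1.33 to -0.017). Slc2a4, the insulin-responsive glucose transporter, passed in neither genotype (0.093 and 0.18).

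Gene lists place these genes among their pathways. The lists were chosen with earlier results of these data known, so their counts are a description. The all-feature median of the interaction was 0.128, so list medians are read against it. That median leaned on dim features, with 0.541 in the dimmest of 5 groups by level and 0.0312 in the brightest. Over the 19098 features above background on all 16 arrays it was 0.0697, with 1025 below and 1608 above 0 at an unadjusted p under 0.05. All measured fatty acid, glucose and citric acid cycle members are among these, so a median near 0 there is not read as a shift. Of 8 genes reported as KLF15 targets, 4 had an unadjusted p under 0.05 below 0 (Bcat2, Gpt, Slc25a20 and Prodh, background 3.89%) and 0 above 0 (background 7.59%), with a median of -0.193. These 8 rose in WT in 5 cases (background 5.04%) and in KO in 1 (background 5.69%). They are known from earlier work on Klf15 in muscle, so their direction is not independent evidence.

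Branched-chain amino acid breakdown had a median of -0.197. Of its 25 measured members 5 were below 0 with an unadjusted p under 0.05 (Bcat2, Mccc2, Bckdk, Pccb and Acadsb). At that level 1 was above 0 (Bcat1, well above background on 2 of the 4 WT dexamethasone arrays). Mccc2, a subunit of methylcrotonyl-CoA carboxylase, rose by 0.39 in WT and was -0.15 in KO, and its interaction of -0.54 ± 0.14 had an unadjusted p of 0.00212, though a second probe gave 0.14. Under vehicle 7 of the 25 were lower in KO by limma (background 0.238%), and under dexamethasone 15 were (background 0.818%); both comparisons share the arrays of the interaction. In WT 5 members rose (background 5.04%) and 1 fell (background 5.64%), and in KO 1 rose (background 5.69%). Of 24 genes of other amino acid breakdown, 5 (Cth, Aldh9a1, Gpt, Oat and Prodh) were below 0 at an unadjusted p under 0.05 and 0 above. The backgrounds are 3.89% and 7.59% for both lists. The median of the 24 was -0.0618, and 8 rose in WT (background 5.04%) against 3 in KO (background 5.69%).

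**Figure D4:**
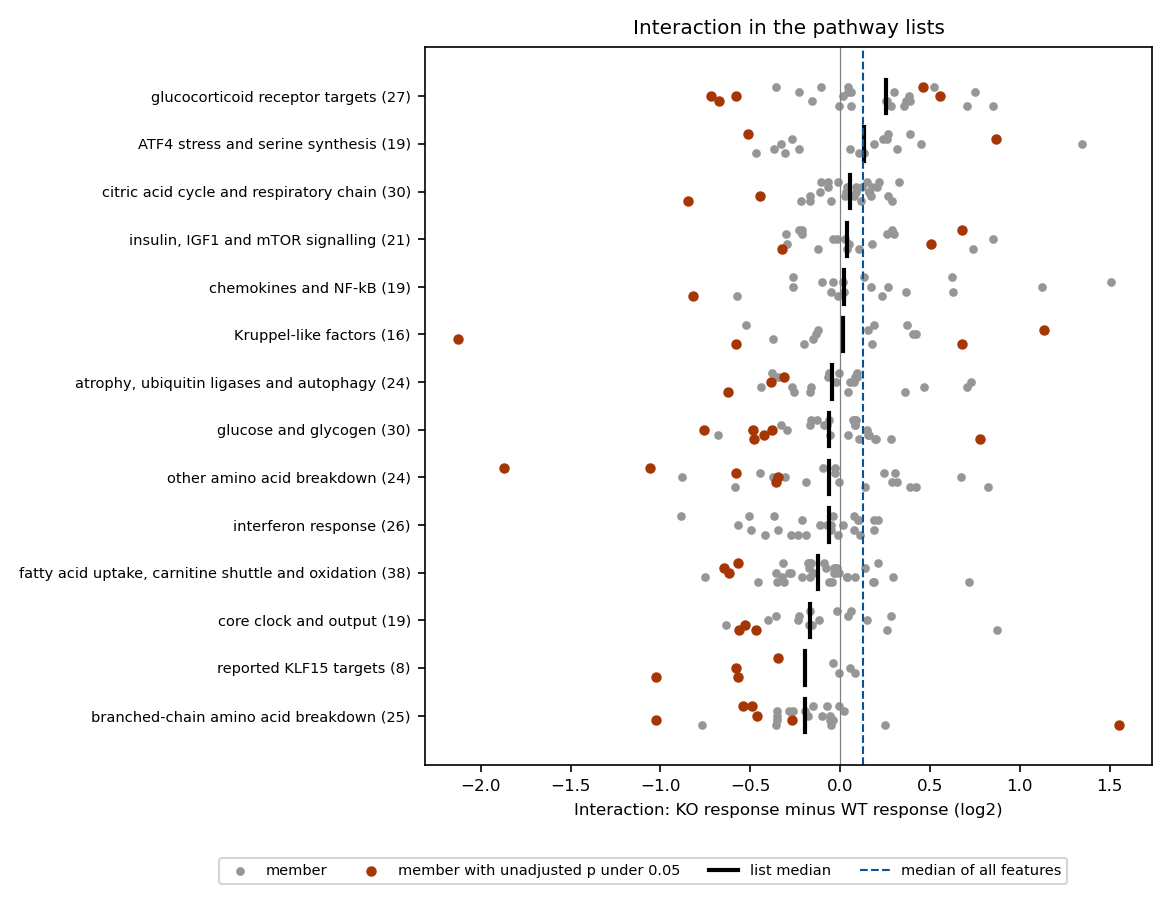
Interaction (log2) of each measured member of 14 pathway lists (number of members in parentheses), with members at an unadjusted p under 0.05 in brown, list medians as black bars and the median of all features, 0.128, as a dashed line. The medians run from -0.197 in branched-chain amino acid breakdown to 0.257 in glucocorticoid receptor targets, and no interferon member is brown under this scaling.

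Counts in the other metabolic lists depended on the setting. Under the main scaling they are read against 3.89% of all features below 0 and 7.59% above 0 at an unadjusted p under 0.05. Under an alternative they are read against the features counted in the same setting. Fatty acid uptake and oxidation had 3 of 38 members below 0 at an unadjusted p under 0.05 (Acads, Ucp3 and Slc25a20), 0 above and a median of -0.122. Relative to all features the median was -0.25, and -0.33 to -0.12 under the alternatives other than single arrays left out. The count of 3 rests on few genes and is not read as a result. The count below 0 was 12 with array median scaling, beside 2756 of all 25196 features at that level. With normexp it was 0, beside 164 of 25196. Glucose and glycogen genes had 5 of 30 below 0: Fbp2 (muscle fructose bisphosphatase, -0.76), Gys1 (glycogen synthase, -0.49), Pdk2 (-0.48), Pygm (muscle glycogen phosphorylase, -0.42) and Pdha1 (-0.38). The 1 above 0 was Ppp1r3c, a glycogen-targeting phosphatase subunit, which rose by 2.10 in WT and 2.88 in KO. With normexp the glucose list had 0 below and 1 above 0, beside 164 and 205 of 25196 features. Without both arrays of high neutrophil markers it had 4 and 3, beside 793 and 1457. Citric acid cycle and respiratory chain genes had a median of 0.0565 and 2 of 30 members below 0, Ogdh (-0.84) and Sdha (-0.44), against 1 below and 5 above 0 without both arrays of high neutrophil markers. Ogdh, a subunit of oxoglutarate dehydrogenase, fell by 0.56 in KO (limma adjusted p = 0.0266) and was 0.29 in WT, with a random-block adjusted p of 0.0388 for the interaction, and its second probe gave an interaction of -0.71. The core clock list had 3 of 19 below 0, Arntl (-0.56), Cry2 (-0.53) and Cry1 (-0.47), and a median of -0.165. Second probes of Cry2 and Cry1 gave 0.11 and 0.056. The count was 1 of 19 with probes averaged, beside 962 of 25196 features below 0, and 0 of 19 with normexp. Arntl, which encodes BMAL1, rose by 1.09 in WT and was 0.52 in KO.

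Glucocorticoid receptor targets as a list had a median of 0.257, and 0.051 below the median of all features when all probes of a gene were averaged. Of its 27 members 18 rose in WT (background 5.04%) and 19 in KO (background 5.69%). At an unadjusted p under 0.05, 3 were below 0 (Cebpb, Cdkn1a and Klf9, background 3.89%) and 2 above 0 (Sgk1 and Errfi1, background 7.59%). Cebpb rose by 1.19 in WT and was 0.47 in KO, whereas Sgk1, a kinase that regulates ion transport, rose by 0.64 in WT and 1.10 in KO and Errfi1, a feedback inhibitor of the EGF receptor, by 0.82 and 1.38. The Sgk1 fit rests on 15 arrays, as 1 spot was left out. Interferon response genes fell in both genotypes. Of 26 members 20 fell in WT (background 5.64%) and 20 in KO (background 4.55%), with medians of -0.983 and -1.03. Of the 26, 0 had an interaction with an unadjusted p under 0.05 by limma. That count depended on the scaling: 6 members were below 0 at that level with array median scaling, 4 with quantile normalization and 3 with the deposited values. Over all 25196 features the counts below 0 were 2756, 1593 and 1582 in the same order.

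In the lists that follow, counts are at an unadjusted p under 0.05, beside 3.89% of all features below 0 and 7.59% above 0. Atrophy, ubiquitin ligase and autophagy genes had 3 of 24 below 0 (Acvr2b, Mul1 and Nedd4, the last reversed at a second probe, 0.66) and a median of -0.0423. Chemokine and NF-kB genes had 1 of 19 (Icam1). The insulin, IGF1 and mTOR list had Mtor below 0 and Igf1r and Irs1 above 0, of 21, but other probes of Igf1r gave -0.25 and 0.16 against 0.51. In the ATF4 stress list Shmt2 was below 0 and Sesn2 above 0, of 19. Of 16 Krüppel-like factors Klf10 and Klf9 lay below 0, the latter with 0.019 at a second probe, and Klf4 (0.68) and Klf2 (1.14) above 0. A second probe of Klf2 gave 0.27.

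Responses within slides could be taken for 1 WT pair and 3 KO pairs of arrays. The WT pair gave 1.55 for Cth, 1.92 for G0s2, 1.44 for Ehhadh, 0.61 for Bcat2 and 0.81 for Slc38a3. The means of the KO pairs were -0.39, 0.34, -0.32, -0.16 and 0.28 in the same order. For Spop and Itih5 the WT pair gave -0.58 and -0.62 and the KO pairs 0.046 and 0.063. With 1 WT pair these differences have no test.

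Other cell types differed between arrays. Of 9 neutrophil markers only 2 were well above background on all 16 arrays, so deviations of the others are partly taken from dim values. Per array, the median deviation of the 9 from their means over the 16 arrays was 7.11 on WT dexamethasone replicate 3 and 5.72 on KO dexamethasone replicate 1. It lay between -2.02 and 0.672 on the 14 arrays other than both of these. Without both of them 0 features passed the interaction test (793 below and 1457 above 0 at an unadjusted p under 0.05) and 73 passed with the random block, and the counts became 2 below and 1 above 0 of 25 branched-chain genes and 4 of 8 reported targets. The 13 macrophage markers measured had a median interaction of 0.475 (range 0.17 to 0.782), beside 0.128 for all features. At an unadjusted p under 0.05, 2 were above 0 (Adgre1 and Cd14, background 7.59%). Their array medians lay between 0.0726 and 0.586 in WT vehicle and between -0.517 and -0.171 in WT dexamethasone, which did not overlap, and between -0.167 and 0.349 and between -0.551 and 0.378 in the KO groups, which did. The array medians of the 9 slow-fibre genes lay between -1.31 and 0.715 in WT vehicle and between -0.288 and 2.20 in WT dexamethasone. In KO they lay between -1 and 1.01 under vehicle and between -0.902 and 1.40 under dexamethasone. The middle values were -1.23, 0.432, -0.00822 and 0.564 in the same order. The median interaction was -0.964, with 0 of 9 at an unadjusted p under 0.05 by limma. With slide as a fixed block 4 were below and 1 above 0, beside 962 and 2022 of 25196 features. The part of these contents in the gene results was not tested.

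Dim features had interactions above 0 under the scaling used. In 5 equal groups of features by mean level, from dimmest to brightest, the median interaction was 0.541, 0.317, 0.116, -0.00357 and 0.0312. In the dimmest group the median response was -0.461 in WT and 0.185 in KO. After quantile normalization the medians of the 5 groups lay between -0.0543 and 0.0393, and in the deposited values between -0.0291 and 0.0202. Scaling arrays to their median moved the all-feature median to -0.168. Of the genes described above, Spop, Itih5, Cth, G0s2, Ehhadh, Bcat2, Slc38a3, Gpt, Slx4ip, Lao1 and Klf10 kept their sign under each of 29 alternatives. Their size did move: with normexp Cth was -0.80 and Slx4ip 0.70, and with array median scaling Itih5 was 0.55 and Gpt -0.87. All alternatives reuse the arrays on which genes were ranked, so the kept signs are a description.

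**Figure D5:**
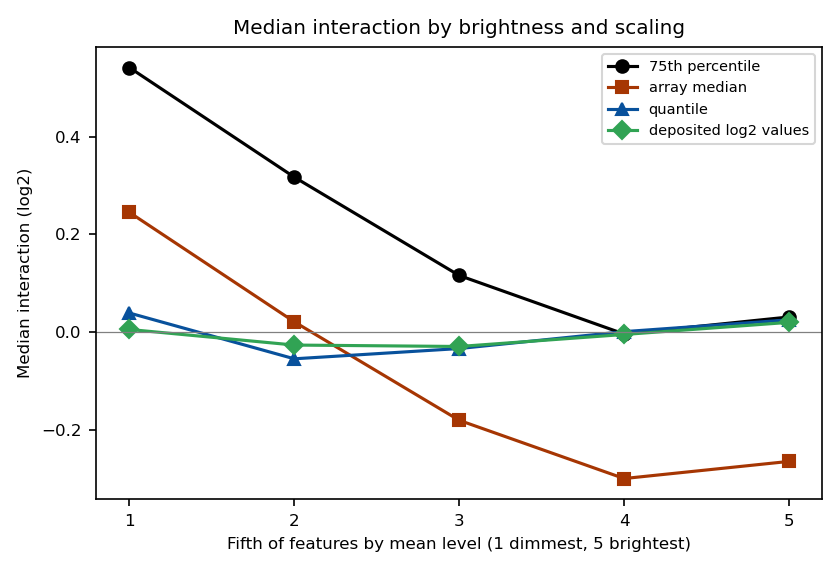
Median interaction (log2) of 5 groups of features ordered by mean level, from dimmest to brightest, under 4 scalings of the arrays. With the 75th percentile the medians fall from 0.541 to near 0, with array medians they are shifted down to between 0.245 and -0.299, and with quantile normalization or the deposited values they stay near 0.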

How the data were processed

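RNA of quadriceps was hybridised to 1-colour Agilent mouse arrays, 1 array per animal. The deposited scanner files hold processed intensity per spot, extracted by the authors with Feature Extraction 10.7.3.1 and an mm9 grid, per the file headers and the submitters' processing notes. A further table deposited by the authors gives log2 values, whose normalization the sources used here do not state. It was used as an alternative only.

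Control spots and 1289 outlier spots (0.186%) were left out. The log2 of the processed intensity minus the 75th percentile of each array (554 to 1169 intensity units) was used. A probe had to be well above background on 4 or more arrays, and the brightest probe stood for a gene, giving 25196 features. Names came from the RefSeq table (GRCm38.p6) through accessions, with a symbol for 24844 of 41174 probes. The 4 group means were fitted with limma 3.58.1 in R 4.3.3 (lmFit, contrasts, eBayes), with Benjamini-Hochberg adjustment over all features. The procedure was tested on simulated data. Figures were drawn with Python 3.11.15 and matplotlib 3.10.9. A fold against a group below background is a bound: the bright group's mean over the dim group's mean of, per array, the higher of the lowest signal well above background and the probe's own.

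Named genes were 16 fixed by symbol, the 10 genes with the smallest interaction p on each side of 0, the 6 with the smallest p among genes with an average response that was smaller in KO and the 6 larger in KO, and up to 3 of each list. Other list members named to spell out a count, and the cell type markers named, were chosen after their values were seen. The members and lists were chosen with earlier results of these data known. Replicate numbers were not used as pairs. Deviations of the 24 same-numbered pairs correlated at -0.66 to 0.66, with 5 above 0.1, and those of other pairs at -0.65 to 0.79. These ranges show no closer match of same-numbered arrays but cannot exclude pairing.

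Alternatives were other scalings, background correction, filters and probe rules, a trended robust eBayes, slide or replicate number as a block, each array left out, and both arrays with high neutrophil markers left out. Normexp (offset 50) planned on mean signals could not be run, as the files used hold median signals, which were used in its place. That choice, and the combinations of the random slide block with other settings, were made after seeing the data.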

Additional observations from a re-analysis of the deposited data

Results flagged for a closer look

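Single arrays stood apart from the other 3 of their group in 9 of 284 groups of named genes (3.17%), where chance flags about 1 in 20. Klf15 on KO dexamethasone replicate 2 read 0.24, against 0.58 to 0.64 on the others. Gpt on WT vehicle replicate 3 read 3.02 against 3.33 to 3.35, and Slc2a4 on the same array read 7.38 against 7.15 to 7.18. G0s2 on WT dexamethasone replicate 4 read 2.17 against 2.64 to 2.70, still above all arrays of the other groups. Slx4ip on WT dexamethasone replicate 1 read -3.29 against -2.91 to -2.84, and Pdk4 on that array read 7.18 against 7.81 to 7.92. Irs1 on WT dexamethasone replicate 2 read 1.42 against 2.44 to 2.49. Cox5a on KO dexamethasone replicate 1 read 7.94 against 8.14 to 8.17, and Ccl8 on KO dexamethasone replicate 4 read 0.096 against -2.58 to -2.28.

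In 3 named genes all dexamethasone arrays lay on one side of the vehicle arrays in WT and on the opposite side in KO. They are Ehhadh (interaction -1.23), Slc20a2 (-0.76) and Slx4ip (1.40). All 3 were named for a small interaction p, which favours this pattern, and it was not counted over all features. Their interactions had limma adjusted p of 0.173, 0.173 and 0.0922, none under 0.05. A second probe of Slx4ip was above 0 in both genotypes (0.41 and 0.87).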

How the results depend on the processing

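Of 71 named genes, 59 kept the sign of their interaction under every alternative run. The alternatives reuse the same arrays, so this is a description. The number of features passing the interaction test, 0, became 1 with the deposited values, 6 with probes above background on all 16 arrays, 2 with a trended robust eBayes, 310 with slide as a random block, and 0 to 5 with single arrays left out (5 without KO vehicle replicate 4, 1 without WT dexamethasone replicate 4). With the replicate number as a block it was 0 (836 below and 1626 above 0 at an unadjusted p under 0.05), and every call of a named gene stayed as it was. The random-block count of 310 was 205 with quantile normalization, 83 with array medians, 73 without both arrays of high neutrophil markers, and 0 to 746 with single arrays left out. List medians are given relative to all features. With quantile normalization they were -0.22 for branched-chain and -0.088 for other amino acid breakdown, -0.082 for glucose, 0.000028 for insulin, -0.15 for clock and -0.12 for ATF4 genes. Normexp gave 0.023 for insulin. The deposited values gave -0.21 for branched-chain, -0.094 for glucose, 0.063 for insulin and -0.18 for clock genes. Probes above background on all arrays gave 0.085 for Krüppel-like factors. Averaged probes gave -0.051 for receptor targets, -0.077 for glucose, -0.0031 for insulin and -0.10 for clock genes, and single probes gave -0.050 for receptor targets, -0.075 for glucose and -0.16 for clock genes. The fixed slide block gave -0.51 for reported KLF15 targets and 0.015 for insulin, and the random block -0.23 for Krüppel-like factors. Without both neutrophil-high arrays the medians were -0.088 for glucose, 0.030 for the citric acid cycle, -0.12 for ATF4 and -0.22 for Krüppel-like factors. With single arrays left out they ran from -0.52 to -0.27 for reported targets, -0.27 to -0.042 for atrophy, -0.22 to -0.094 for glucose, -0.16 to 0.00025 for insulin, -0.34 to -0.12 for interferon, -0.062 to 0.13 for ATF4 and -0.27 to 0.040 for Krüppel-like factors. Interactions near 0 changed sign. With array medians these were Klf15 -0.12, Slc2a4 -0.21, Trim63 -0.24, Pdk4 -0.25, Lcn2 -0.23, Foxo1 -0.25 and Cox5a -0.0086. Quantile normalization gave Trim63 -0.015 and Lcn2 -0.048, normexp gave Trim63 -0.035 and Pdk4 -0.016, and the deposited values gave Slc2a4 -0.0059, Trim63 -0.088, Pdk4 -0.036 and Foxo1 -0.0032. Averaged probes gave Klf15 -0.26, Fkbp5 0.33, Foxo1 -0.10, Nedd4 0.18 and Ifit2 0.18. The fixed slide block gave Klf15 -0.091, Trim63 -0.15 and Pdk4 -0.086, the random block Trim63 -0.016 and Pdk4 -0.012, and leaving out both neutrophil-high arrays Mt2 -0.0076 and Foxo1 -0.0021. With single arrays left out the interactions that turned ran from -0.023 to 0.37 for Klf15, -0.35 to 0.45 for Fbxo32, -0.085 to 0.27 for Trim63, -0.17 to 0.21 for Pdk4, -0.33 to 0.30 for Lcn2 and -0.048 to 0.14 for Foxo1. The cause was not tested.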

Other observations

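Slc4a7, a sodium bicarbonate cotransporter gene chosen after its values were seen, had the interaction -6.33 ± 1.61 (SE, n = 4 arrays per group), with a WT response of 4.71 (limma adjusted p = 0.0172) and a KO response of -1.63 (limma adjusted p = 0.497). Its interaction had a limma adjusted p of 0.201. The SE was far above the median of 0.274 over all features, so the size is poorly fixed. Without KO vehicle replicate 4 the interaction was -7.71 (limma adjusted p = 0.0452), so whether it passed turned on a single array. Levels on each array are not given here.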
